A study of Mus musculus with 18 samples.

Results

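The genes described here are 9 intermediate filament genes, the keratins Krt5, Krt7, Krt8, Krt14, Krt15, Krt17, Krt18 and Krt19 and vimentin (Vim), taken by name from the 49585 gene identifiers of the count table and followed through all 18 lesions. The lesions were lung metastases of AT3, a breast carcinoma line from the MMTV-PyMT transgenic mouse, carrying GFP and mCherry labels. AT3 cells placed in the mammary fat pad reached the lungs on their own, and fluorescent lesions were cut from frozen lung sections by laser capture. NK hosts received 60000 in vitro activated murine NK cells by vein on day 11, and Ctrl hosts received PBS. The NK group held 7 lesions of 2 mice, with 3 lesions in mouse NK1 and 4 in mouse NK2. The Ctrl group held 11 lesions of 3 mice, with 5 lesions in mouse KO1, 4 in KO2 and 2 in KO3. All hosts, Ctrl hosts included, are labelled Rag2-/-IL2rg-/-, a genotype that leaves a mouse without T, B and NK cells of its own, although Rag1 rather than Rag2 stands in the description of growth. The comparison asks how NK cell transfer changed the lesions. Treatment was given to the mouse and lesions of 1 mouse are not independent, so the mouse was the replicate, and with 2 against 3 mice an exact one-sided permutation test of a single gene cannot go below 0.1.

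Intermediate filaments are the tough, rope-like part of the cytoskeleton. Keratin filaments form only when a type I keratin (here Krt14, Krt15, Krt17, Krt18 and Krt19) pairs with a type II keratin (here Krt5, Krt7 and Krt8), and epithelia are told apart by the pairs they make. Krt8 and Krt18 are the pair of simple epithelia and of the luminal mammary layer, Krt7 and Krt19 are further keratins of simple and ductal epithelium, and Krt5 with Krt14 is the pair of basal and myoepithelial cells. Vimentin, a type III filament protein that assembles without a partner, marks mesenchymal cells and is made by carcinoma cells that have taken on mesenchymal traits; fibroblasts, endothelium and macrophages make it as well. In a bulk sample fewer cells of a type and less RNA per cell cannot be told apart.

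The members lie at 3 places in the genome (GRCm38, the mm10 build). The type II genes sit together on chromosome 15, with Krt8 at chr15:101996698-102004482 on the minus strand and its type I partner Krt18, an exception among type I genes, beside it at chr15:102028180-102032027 on the plus strand. Krt7 lies at chr15:101411043-101430313 and Krt5 at chr15:101707070-101712898. The other type I genes are on chromosome 11, with Krt15 at chr11:100131758-100135928, Krt19 at chr11:100140810-100148665, Krt14 at chr11:100203162-100207548 and Krt17 at chr11:100256217-100261029, and Vim is at chr2:13573927-13582826. RefSeq promoter sequences (GRCm38.p6, 250 bases before to 50 bases after the RefSeq start) were matched for 6 of the 9 members. Those of the partners Krt8 and Krt18 and of Vim are shown because the results turn on how these 3 genes varied against each other. Capitals mark motif matches found on either strand. The letters searched were TATAAA for the box that places transcription starts, CCAAT for the motif of nuclear factor Y, GGGCGG for the GC box of Sp factors and TGANTCA for the motif of AP-1.
Krt8, chr15:102004293-102004592, minus strand: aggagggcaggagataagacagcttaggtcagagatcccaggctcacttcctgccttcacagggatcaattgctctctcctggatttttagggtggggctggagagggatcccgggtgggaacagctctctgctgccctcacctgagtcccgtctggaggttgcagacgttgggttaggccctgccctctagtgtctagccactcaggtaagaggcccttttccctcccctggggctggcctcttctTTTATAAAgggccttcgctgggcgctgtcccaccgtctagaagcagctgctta
Krt18, chr15:102027966-102028265, plus strand: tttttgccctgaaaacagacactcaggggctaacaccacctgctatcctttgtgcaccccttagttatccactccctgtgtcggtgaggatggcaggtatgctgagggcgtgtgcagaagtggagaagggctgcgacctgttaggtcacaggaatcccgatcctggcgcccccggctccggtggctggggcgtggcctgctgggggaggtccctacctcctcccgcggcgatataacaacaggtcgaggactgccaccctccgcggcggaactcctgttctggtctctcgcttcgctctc
Vim, chr2:13574061-13574360, plus strand: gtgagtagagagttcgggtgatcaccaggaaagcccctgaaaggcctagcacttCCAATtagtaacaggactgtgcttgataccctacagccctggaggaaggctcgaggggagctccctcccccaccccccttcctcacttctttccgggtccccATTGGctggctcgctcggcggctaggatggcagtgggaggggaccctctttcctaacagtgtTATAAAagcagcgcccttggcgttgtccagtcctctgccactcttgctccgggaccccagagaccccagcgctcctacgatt
The Vim window held 1 TATA box that begins at position -32 from the RefSeq start, and 2 CCAAT boxes that begin at -196 and -94. The Krt8 window held 2 TATA matches on opposite strands, which overlap with an offset of 2 bases and begin at positions -3 and -1, at the RefSeq start itself. The Krt18 window held none of the 4 motifs. Among 32544 mouse promoters of the same length, 13.6% held the TATA motif, 37.4% the CCAAT motif, 35.9% the GC box and 7.79% the AP-1 motif. A match describes letters only, and no match says nothing about the factor.

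Libraries held between 2964242 and 11798897 estimated counts. The mitochondrial ribosomal transcript mt-Rnr2 took 13.7% to 65.3% of counts in NK lesions and 12.1% to 68.7% in Ctrl lesions, and all 3 lesions of mouse NK1 were among the 6 lesions above 40%. Of 8 NK cell markers, 7 could be tested and all 7 had positive fold changes, with 0 past the adjusted threshold in edgeR. An unadjusted edgeR p under 0.05 was found for 4 of them, where 1.55% of all tested genes had such a p and were higher in NK mice. The summed levels of the 8 markers overlapped, at 2.16 to 73.0 CPM (counts per 1000000) in NK lesions and 0.575 to 9.91 in Ctrl lesions. Lesion NK1-1 stood apart by fat cell markers, at 1253 CPM summed against 4.72 or less in every other lesion. Its heart muscle markers, at 202 CPM summed, were also the highest, ahead of NK1-3 at 78.5 CPM and KO2-1 at 27.0 CPM. In NK1-3 a single gene, Tnni3, held 73.4 of the 78.5 CPM, and Myh6, Tnnt2 and Actc1 were at 0. Levels below are CPM of the library size scaled by trimmed mean of M values (TMM). Levels of different genes are compared in CPM per kb of the principal transcript, and counts, which also depend on transcript length, are given to show the depth behind a value.

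Vimentin was the most abundant member in every lesion but 1, and Krt18 was the leading keratin in most. Over the 18 lesions the median level per kb was 713 CPM for Vim (133 to 1099), 41.5 for Krt18 (13.6 to 121), 10.1 for Krt19 (0.300 to 209), 6.55 for Krt8 (1.41 to 53.3) and 4.65 for Krt7 (2.16 to 12.5). Krt5, Krt14, Krt15 and Krt17 had a median of 0. Vim was above Krt18 in 18 of 18 lesions and Krt18 above Krt8 in 16, whereas Krt19 exceeded Krt8 in only 8 and Krt8 exceeded Krt7 in 9, so that the order of these 3 was not fixed. Krt18 made up a median of 60.7% of the summed keratin level per kb in NK lesions and 69.3% in Ctrl lesions. Krt18 led the keratins in 16 lesions; the exceptions were both from mouse NK1, lesion NK1-1, where Krt15 held 40.2%, and lesion NK1-3, where Krt19 held 65.1%. Vim made up 29.3% of the level of all 9 members in NK1-3 and at least 76.1% in the other lesions.

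**Figure D1:**
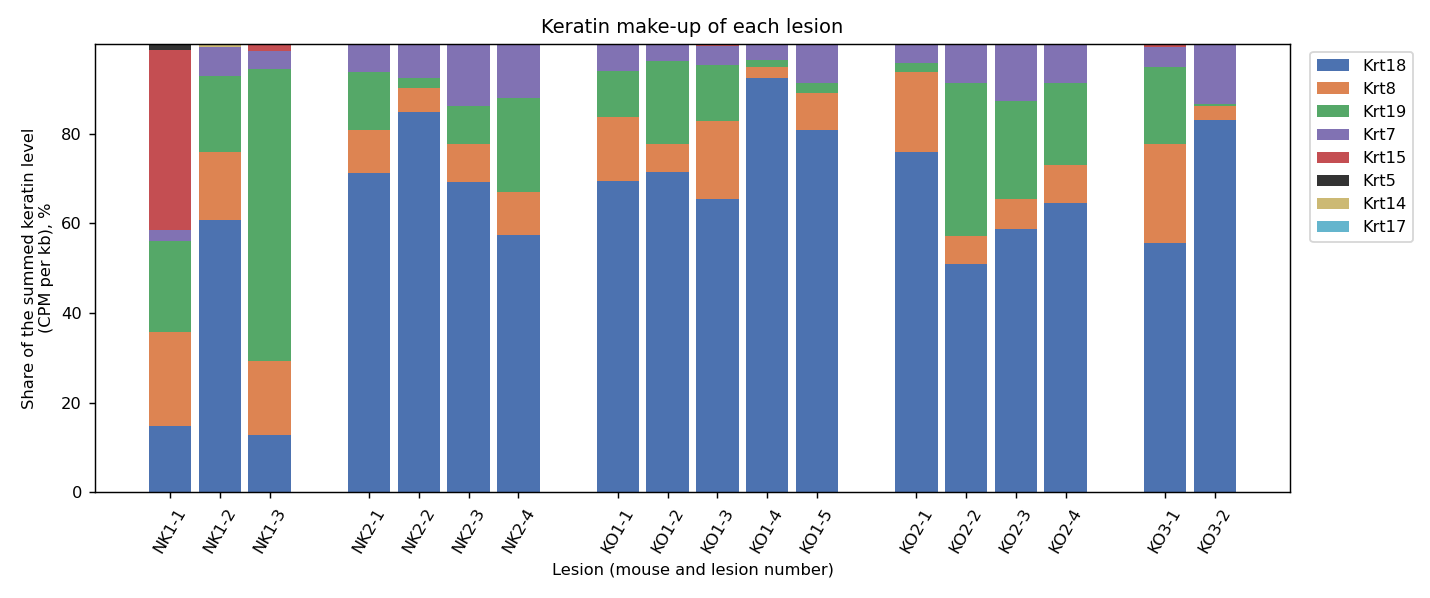
Share of each keratin in the summed keratin level (CPM per kb of transcript, %) in each lesion, with NK mice on the left and Ctrl mice on the right. Krt18 (blue) is the largest share in 16 of 18 lesions, Krt15 (red) in NK1-1 and Krt19 (green) in NK1-3.

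Krt8, the type II partner of Krt18, had a lowest, median and highest level of 5.71, 11.0 and 104 CPM in NK lesions, against 2.76, 14.6 and 31.5 CPM in Ctrl lesions. By mouse it was 41.4 and 8.97 CPM in NK1 and NK2, against 20.4, 14.1 and 21.1 CPM in KO1, KO2 and KO3. The NK mice thus lay on either side of all Ctrl mice. The mean was 25.2 ± 22.9 CPM in NK mice (SD, n = 2) and 18.5 ± 3.87 CPM in Ctrl mice (SD, n = 3), and the log2 fold change was 0.44 ± 0.63 (SE; edgeR quasi-likelihood test, Benjamini-Hochberg adjusted p = 0.9998). Without mouse NK1 it was -1.04, and lesion NK1-3 alone held 104 CPM, against 38.0 CPM or less in the other NK lesions.

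Krt18, the type I partner, was the only tested member whose NK mice did not overlap the Ctrl mice. Its lowest, median and highest levels were 19.6, 58.5 and 67.9 CPM in NK lesions, against 35.0, 72.9 and 174 CPM in Ctrl lesions. By mouse it was 33.3 and 55.5 CPM in NK1 and NK2, against 92.6, 61.8 and 63.2 CPM in KO1, KO2 and KO3. Both NK mice were below every Ctrl mouse, a pattern that 6.86% of all 16917 tested genes showed (7.94% had both NK mice above every Ctrl mouse), while single lesions of the groups overlapped. The log2 fold change was -0.71 ± 0.41 (SE; edgeR p = 0.125, adjusted p = 0.9998), so the difference did not pass the test. Its sign was negative in all 34 alternatives, between -1.13 without mouse NK2 and -0.32 without lesion NK1-1 when a mouse or a lesion was left out. With both NK mice below every Ctrl mouse, leaving out a mouse could hardly turn the sign. The alternatives draw on the same 5 mice, and the share of all genes that keep their sign was not taken. The kept sign therefore adds no support for a difference.

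**Figure D2:**
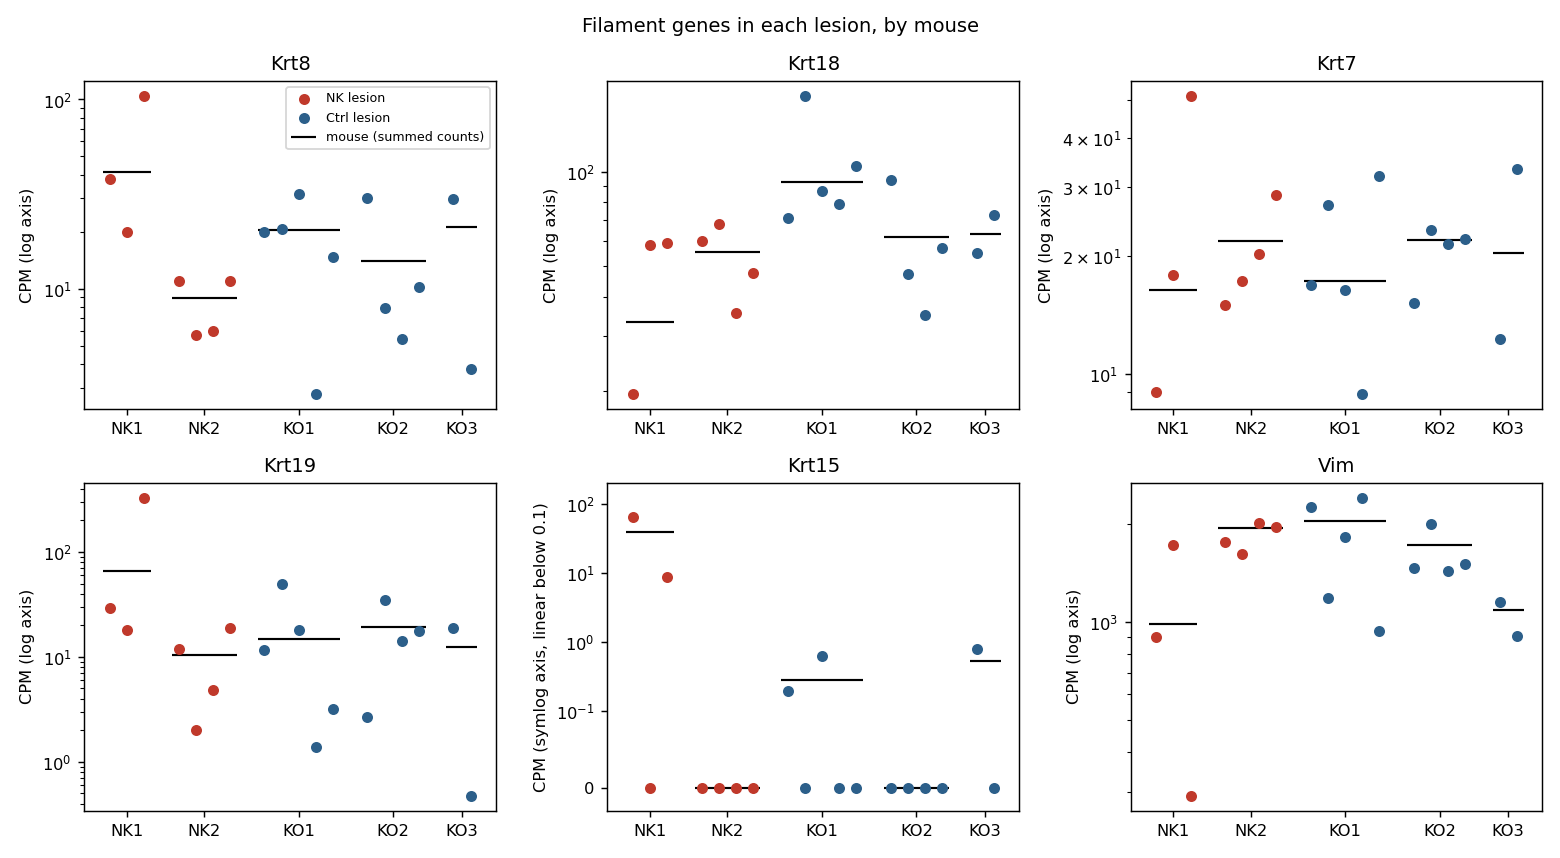
CPM of 6 members in each lesion (points, log axes; symlog for Krt15), grouped by mouse with NK mice on the left; bars give the level of the mouse from its summed counts. Krt18 bars are lower in both NK mice than in the Ctrl mice, while Krt8, Krt19 and Krt15 are high in mouse NK1 and not in NK2.

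The partners did not vary together. The log2 ratio of Krt8 to Krt18 per kb was -0.13 and -3.07 in mice NK1 and NK2, against -2.63, -2.58 and -2.03 in KO1, KO2 and KO3. The log2 ratio per kb was above 0 in 2 of 18 lesions, NK1-1 at 0.51 (241 Krt8 and 124 Krt18 counts) and NK1-3 at 0.37 (145 and 82 counts). At the other end, Ctrl lesion KO1-4 stood at -5.26 (24 Krt8 and 687 Krt18 counts). The mean log2 ratio was -1.60 ± 2.08 in NK mice (SD, n = 2) and -2.41 ± 0.33 in Ctrl mice (SD, n = 3). Across the 18 lesions of 5 mice, which share hosts and library scaling, Pearson's r of log2 CPM was 0.04 between Krt8 and Krt18 and 0.70 between Krt8 and Krt19.

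Set against Vim, the keratins differed in how they split the mice. The log2 ratio of Krt8 to Vim per kb was -4.41 and -7.59 in NK1 and NK2, against -6.48, -6.77 and -5.53 in KO1, KO2 and KO3, with the NK mice on either side of the Ctrl mice. The log2 ratio of Krt18 to Vim was -4.28 and -4.52 in NK1 and NK2, against -3.86, -4.19 and -3.50 in KO1, KO2 and KO3. From summed counts both NK mice were lower than the Ctrl mice, with means of -4.40 ± 0.17 in NK mice and -3.85 ± 0.34 in Ctrl mice (SD, n = 2 and 3), but NK1 lay close to KO2 and lesion NK1-3, at -1.69, was the highest of all 18. As the mean of a mouse's lesions, an alternative added after seeing the data, the ratio was -3.63 and -4.55 in NK1 and NK2, against -3.44, -4.25 and -3.40 in KO1, KO2 and KO3, and the groups overlapped. A ratio within a library does not depend on its scaling.

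**Figure D3:**
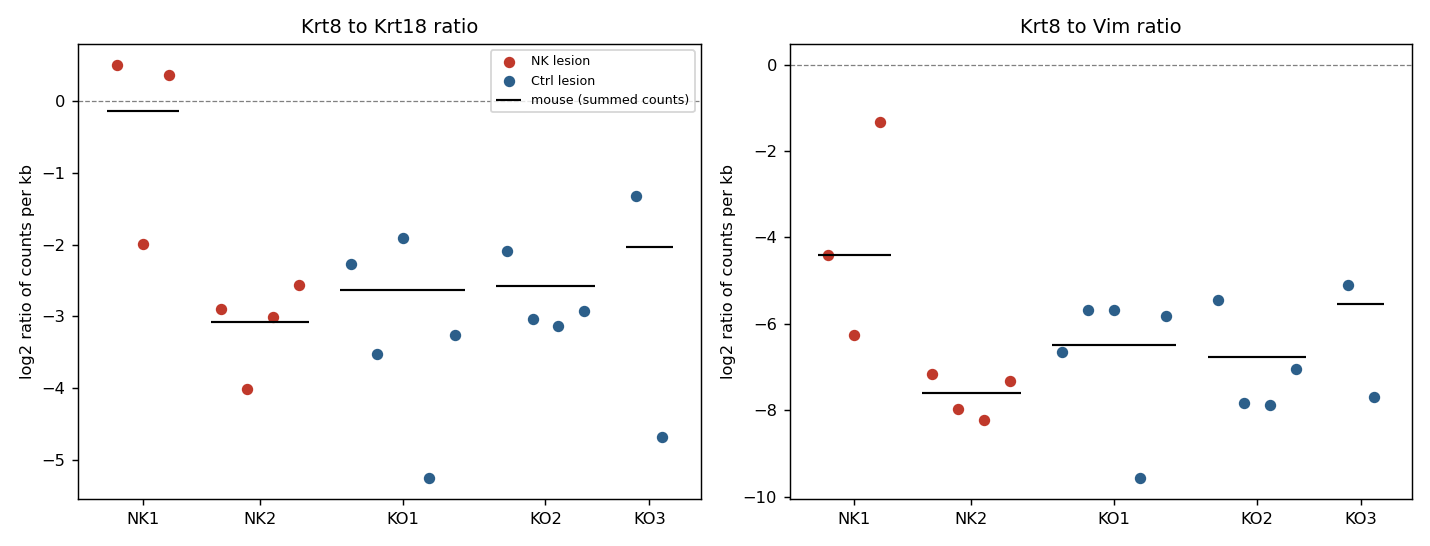
Log2 ratio of Krt8 to Krt18 (left) and of Krt8 to Vim (right), in counts per kb, for each lesion (points) and each mouse (bars), NK mice on the left. Lesions NK1-1 and NK1-3 are the only points above 0 in the Krt8 to Krt18 panel, and Krt8 stays below Vim in all 18 lesions.

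Krt19, a type I keratin of ductal and airway epithelium, was the most uneven of the abundant members. It had a lowest, median and highest level of 2.02, 17.9 and 330 CPM in NK lesions, against 0.472, 14.3 and 49.4 CPM in Ctrl lesions. By mouse it was 65.6 and 10.4 CPM in NK1 and NK2, against 14.8, 19.2 and 12.5 CPM in KO1, KO2 and KO3. NK1 was above and NK2 below all Ctrl mice. The log2 fold change was 1.29 ± 0.69 (SE; edgeR p = 0.0984, adjusted p = 0.9998), and it was -0.57 without mouse NK1. Lesion NK1-3, with the lowest depth of all, held the 330 CPM (458 counts), while the other NK lesions held 29.5 CPM or less.

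Krt7, a type II keratin of ductal and glandular epithelium, was the steadiest keratin between mice. It ranged over 8.99 to 51.1 CPM in NK lesions, with a median of 17.9, and over 8.86 to 33.3 CPM in Ctrl lesions, with a median of 21.5. By mouse it was 16.4 and 21.8 CPM in NK1 and NK2, against 17.2, 21.9 and 20.4 CPM in KO1, KO2 and KO3. The groups overlapped, and the log2 fold change of -0.05 ± 0.40 (SE; edgeR adjusted p = 0.9998) took either sign as lesions were left out.

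Krt15, a type I keratin of basal epithelial and airway cells, was found in 5 of 18 lesions. NK1-1 held 399 counts (62.9 CPM) and NK1-3 held 12 counts (8.64 CPM), and the other 5 NK lesions had none. In Ctrl lesions there were 2 counts in KO1-1, 8 in KO1-3 and 6 in KO3-1, and none in the other 8. Lesion NK1-1 thus held 97.1% of the Krt15 counts of the NK group. Krt15 was the only member with an unadjusted p under 0.05 (log2 fold change 6.38 ± 2.53, SE; edgeR p = 0.0407, adjusted p = 0.9998), against 2.52% of all tested genes, 1.55% higher and 0.969% lower in NK mice. Without mouse NK1 the fold change was -6.25, since NK2 had no count, and the size of that value is not a measured difference.

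The basal keratins other than Krt15, namely Krt5, Krt14 and Krt17, were at or near 0. Krt5, the type II basal keratin, had 15 counts in NK1-1 and none elsewhere, mouse NK2 included. Pooled over the NK group, this level was 6.99-fold a floor of 3 counts over the Ctrl group. That figure rests on 1 lesion of 1 mouse and does not describe the other NK lesions. Krt14, its type I partner, had 2 counts, both in NK1-2. Krt17, a type I keratin of basal and stressed epithelium, had 1 count, in NK1-1. All 3 had no count in 11 of 11 Ctrl lesions, which allows up to 0.0323 CPM over that group, and none entered the test. The floor covers counting error only.

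Vim had a lowest, median and highest level of 292, 1730 and 2022 CPM in NK lesions, against 906, 1464 and 2411 CPM in Ctrl lesions. By mouse it was 989 and 1943 CPM in NK1 and NK2, against 2047, 1723 and 1092 CPM in KO1, KO2 and KO3. NK1 lay below and NK2 within the range of the Ctrl mice. The log2 fold change was -0.14 ± 0.49 (SE; edgeR adjusted p = 0.9998) and 0.27 without mouse NK1. The lowest lesion, NK1-3, was also the highest for Krt8, Krt7 and Krt19.

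Of the 9 members, 6 passed the filter on low counts and 0 of these passed an adjusted p of 0.05 in edgeR's quasi-likelihood test, as was so for 0 of all 16917 genes tested (0%). With an unadjusted p under 0.05 there was 1 member, against 426 genes. DESeq2, run on the same summed counts, called 39 of 17521 genes (0.223%) and no member. Fold changes were positive for Krt8, Krt15 and Krt19 and negative for Krt7, Krt18 and Vim, where 51.7% of all tested genes had a negative one, with a median of 0.19 on the log2 scale against -0.03 over all tested genes. A p that misses the threshold does not show that the groups were alike. Krt8, Krt19 and Krt15 took a negative and Vim a positive sign without mouse NK1, without lesions NK1-1 and NK1-3, and without the 6 lesions above 40% mt-Rnr2. The last 2 of these settings were chosen after seeing the data.

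**Figure D4:**
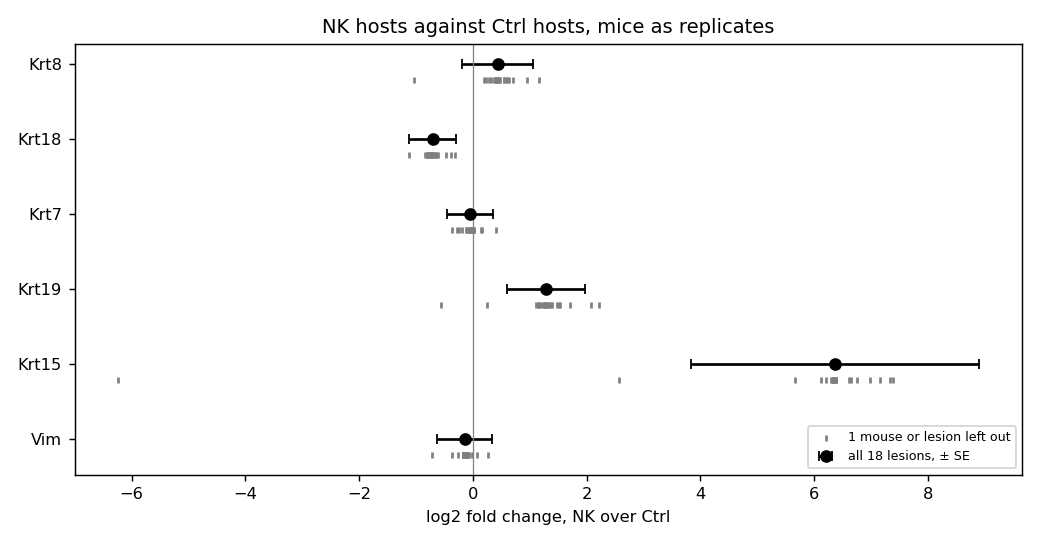
Log2 fold change of NK over Ctrl for the 6 tested members (black points, ± SE, mice as replicates), with the values after leaving out 1 mouse or 1 lesion as grey ticks. Krt18 ticks are all below 0, between -1.13 and -0.32, whereas Krt8, Krt19, Krt15, Krt7 and Vim have ticks on both sides.

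Krt8, Krt19 and Krt15 varied more among lesions of the same host than the other tested members. The SD of log2 CPM among lesions of a mouse, pooled over mice with 13 degrees of freedom, was 1.95 for Krt19, 1.76 for Krt15, 1.18 for Krt8, 0.73 for Krt7, 0.62 for Vim and 0.58 for Krt18. Krt19 was thereby more uneven than 96.4% of all genes, and than 98.9% of genes of similar level. Krt8 stood lower, at percentile 69.5 of all genes and 87.7 of genes of similar level. Krt15 stood at percentiles 93.8 and 94.7, but mice NK2 and KO2 had no Krt15 count in any lesion. Krt18 stood at percentile 18.6 and Vim at percentile 22.5 of all genes, but at percentiles 52.1 and 74.1 of genes of similar level. The SD of the 5 mouse means was 1.89 for Krt15, where it exceeded the SD within mice, 1.47 for Krt19, 0.93 for Krt8, 0.53 for Vim, 0.47 for Krt18 and 0.06 for Krt7.

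Several airway markers moved with part of this variation. Scgb1a1, the secretoglobin of airway club cells, had over 1000 counts in 7 lesions (NK1-1, NK1-3, NK2-1, KO1-1, KO1-2, KO1-3 and KO3-1) and at most 279 in the other 11. Foxj1, the regulator of motile cilia in ciliated cells, had 26 or more counts in those 7 lesions and 1 count in the others together. Scgb3a2 and Cyp2f2 split alike, at 25.1 and 126 CPM or more in the 7 and 1.22 and 0.915 CPM or less in the 11. Scgb3a1, a further secretoglobin, did not, at 742 CPM in NK1-1, 0 in NK1-3 and KO3-1 and up to 1.58 CPM in the 11. Of 14 lung epithelial markers it alone had an unadjusted p under 0.05 (log2 fold change 8.36, edgeR p = 0.00597, adjusted p = 0.9998). Of all tested genes 1.55% had such a p and were higher in NK mice. Krt15 had counts in 5 of the 7 lesions and in 0 of the 11. Krt8 was 11.0 to 104 CPM in the 7 and 2.76 to 30.0 CPM in the 11, and Krt19 was 11.7 to 330 CPM in the 7 and 0.472 to 34.7 CPM in the 11. Krt18 was 19.6 to 174 CPM in the 7 and 35.0 to 104 CPM in the 11, with medians of 60.3 and 58.5 CPM. The 7 lesions comprised 3 of 7 NK lesions and 4 of 11 Ctrl lesions. These sets were drawn after seeing the data and are no groups of the study, and their part in the results was not tested.

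Other lung and stromal markers were present as well. Of the 14 lung epithelial markers, 11 to 14 were detected in each lesion, with summed levels of 382 to 27697 CPM in NK lesions and 736 to 18397 CPM in Ctrl lesions; the highest NK value was that of NK1-3. The airway gene Scgb1a1 alone held 21946 of the 27697 CPM in NK1-3 and 15097 of the 18397 CPM in KO3-1. The 6 mesothelial markers, from a simple epithelium that also makes Krt8, Krt18 and Krt19, summed to 3.86 to 255 CPM in NK lesions and 0.307 to 375 CPM in Ctrl lesions, highest in NK1-2 (255 CPM) and in the 4 KO2 lesions (122 to 375 CPM). Upk3b, a defining mesothelial gene, was at 0 in 4 of 7 NK lesions and 5 of 11 Ctrl lesions. Among sources of Vim, all 8 fibroblast markers were detected in all 18 lesions. Their sums were 485 to 8309 CPM in NK lesions and 140 to 867 CPM in Ctrl lesions. Of the 8, 3 had an unadjusted edgeR p under 0.05 (Col3a1, Lum and Dpt, all higher in NK mice), and 0 passed the adjusted threshold. Of all tested genes, 1.55% had such a p and were higher in NK mice. The 8 macrophage markers summed to 480 to 4122 CPM in NK lesions and 1040 to 3274 CPM in Ctrl lesions. The 6 neutrophil markers summed to 97.8 to 301 CPM in NK lesions and 159 to 4272 CPM in Ctrl lesions. All 6 had negative fold changes, with a median of -3.27 on the log2 scale, while 0 passed the adjusted threshold. All 6 had an unadjusted edgeR p under 0.05, where 0.969% of all tested genes had such a p and were lower in NK mice. The lesions of mouse KO1 held 159 to 320 CPM, near the NK lesions, and those of KO2 and KO3 held 834 to 4272 CPM. The 8 endothelial markers summed to 26.2 to 335 CPM in NK lesions and 120 to 334 CPM in Ctrl lesions. Single genes made up most of the highest NK sums. Col3a1 held 6914 of the 8309 CPM of fibroblast markers in NK1-1, and Lyz2 held 3785 of the 4122 CPM of macrophage markers in NK2-4. Kdr held 310 of the 335 CPM of endothelial markers in NK1-3, where Pecam1 was at 0. The part of all these cell types in the levels of Krt8, Krt18, Krt19 and Vim was not tested.

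**Figure D5:**
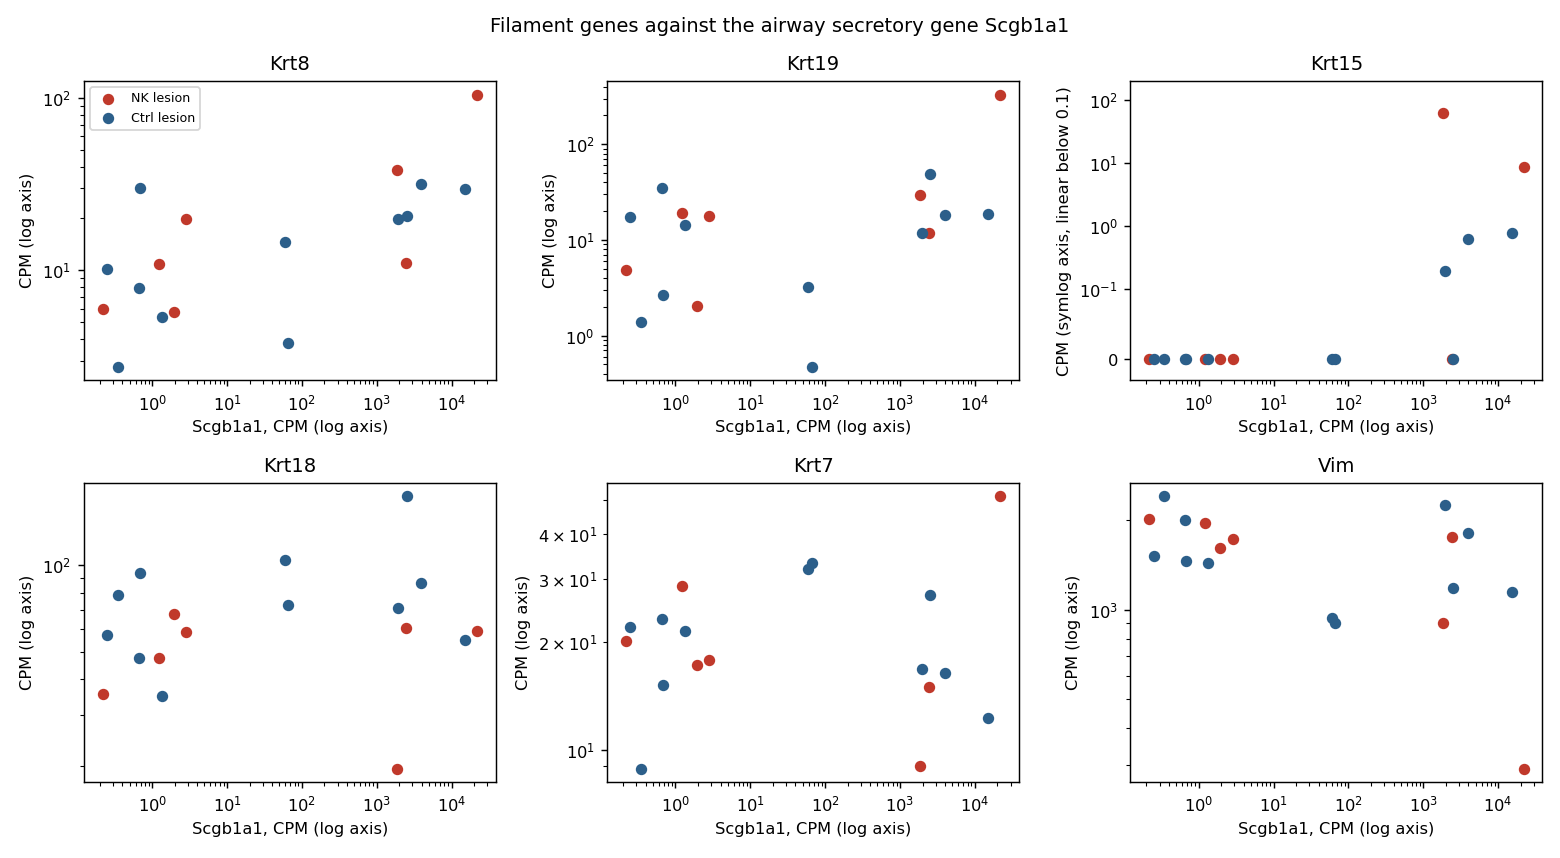
CPM of 6 members against CPM of the airway gene Scgb1a1 in each of the 18 lesions, NK in red and Ctrl in blue, on log axes (symlog for Krt15). Krt15 is above 0 only among the 7 lesions to the right, and the highest Krt8, Krt19 and Krt7 points are the lesion with the most Scgb1a1, NK1-3, where Vim is lowest.

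The genes that followed each member most closely over the 18 lesions of 5 mice, by Pearson's r of log2 CPM, differed between members. For Krt8 they were Kif9 (0.88), Hid1 (0.87) and Vwa3a (0.86), and for Krt19 they were Gsta4 (0.87), Slc22a5 (0.87) and Nipal2 (0.85). For Krt18 they were Prpsap1 (0.86), Hk1 (0.85) and Slc25a39 (0.83), and for Krt7 Nckap5 (0.83), Rfng (0.80) and Ccdc61 (0.78). For Vim they were Igfbp4 (0.95), Itgb1 (0.94) and Cfl1 (0.94). Vim had an r of -0.58 with Krt8, -0.53 with Krt7, -0.42 with Krt19 and 0.01 with Krt18. All points share library depth and host, and no test was made.

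The rest of the keratin family held few counts. Of 46 other keratin genes on chromosomes 11 and 15, 31 had no count in any lesion and only 6 had over 20 counts in all. Together the 46 held 887 counts, against 19400 of the member keratins, not set per length, and the keratin shares above leave them out. In single lesions Krt13 reached 12.6 CPM (KO1-2) and Krt79 12.3 CPM (KO3-2, where Krt8 was at 3.78 CPM). Those of highest count were Krt23 with 81 counts in NK and 151 in Ctrl lesions, Krt79 with 109 and 119, Krt80 with 101 and 90, and Krt10, a keratin of differentiating epidermis, with 47 and 60. These 4 were the ones tested, 2 with positive and 2 with negative fold changes and 0 past the threshold. Krt16, a keratin of injured epidermis, had no count. A processed Krt8 copy in the genome, Krt8-ps, held 5 counts.

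The other intermediate filament genes, the linkers and the genes of epithelial identity gave no call either. Of 14 other filament genes 8 were tested, 5 with positive and 3 with negative fold changes and a median of 0.36. Their members of highest count were Lmna, which forms the nuclear lamina (log2 fold change -0.45 ± 0.37, SE), Nes, a partner of vimentin in progenitor cells (0.27 ± 0.62), and Lmnb2, a B-type lamin (-0.54 ± 0.42). Of 12 genes that tie filaments to junctions and to the rest of the cytoskeleton, 10 were tested, 2 positive and 8 negative, with a median of -0.31. Their members of highest count were the plakins Dst (-0.21 ± 0.37) and Plec (-0.57 ± 0.51) and the plakophilin Pkp4 (-0.08 ± 0.39). All 14 genes of epithelial identity were tested, 8 positive and 6 negative, with a median of 0.34. Their members of highest count were E-cadherin, Cdh1 (-0.64 ± 0.65), the protease inhibitor Spint2 (-0.25 ± 0.63) and the tight junction gene Cldn7 (-0.09 ± 0.85). Cdh1 ranged over 0.406 to 215 CPM in NK lesions, and the lesion at 215 CPM was again NK1-3. In each of the 3 lists 0 genes passed an adjusted p of 0.05 and 0 had an unadjusted p under 0.05.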

How the data were processed

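Per the labels' protocols, 2 ng of total RNA from each captured lesion went into the QIAseq FX single cell RNA library kit. Per the submitters' processing notes, the tools were RSEM 1.2.28, STAR, bcl2fastq 2.17 and DESeq2, and the build was mm10, in an order and with settings not given in the sources used here; strand handling is not given either. The deposited count table holds expected counts (estimated counts, not whole), which were rounded. The authors also deposited a table of normalized log2 values, used only as an alternative. No column of either table lay outside the 18 lesions. Gene identifiers were matched without their version, and 49326 of 49585 had a symbol.

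Rounded counts of a mouse's lesions were added up. Genes kept by filterByExpr (minimum count 10, minimum total 15) numbered 16917 and were tested with edgeR 4.0.16 (quasi-likelihood, robust, TMM) in R 4.3.3 with limma 3.58.1, with Benjamini-Hochberg adjustment over all of them and a threshold of 0.05. The script was tested on simulated data with a smaller spread between mice than these data, so that trial does not show how often real changes are found here. The labels do not say how the mice were spread over experiments, so p-values measure the spread between these mice. Depth ran over 2964242 to 11798897 counts, and floors are 3 counts and cover counting error only. Lesion levels use a TMM scale, correlations log2 CPM with a prior count of 2, lengths and coordinates the GENCODE annotation of GRCm38 and ratios a pseudocount of 0.5.

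Members, gene lists, the motifs and the rule for named genes were chosen with earlier results of these data known. Named were all members, the 4 other keratins of highest count, the 3 genes of highest count in each filament, linker and epithelial list, and the 3 genes of highest r with each member of 10 or more counts in 9 or more lesions. Alternatives were RLE scaling, DESeq2 1.42.0, other filters, each mouse and each lesion left out, equal weight per lesion, lesions with the mouse as a random block, the mouse number as a block, the authors' normalized table and, added after seeing the data, fits without lesions NK1-1 and NK1-3 or without lesions above 40% mt-Rnr2.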

Additional observations from a re-analysis of the deposited data

Results flagged for a closer look

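In the 25 sets of 4 to 10 lesions tested for a value far from the rest, 7 values were marked. For each member the sets were the 7 NK lesions together and the lesions of mice NK2, KO1 and KO2, where any had a count. The 11 Ctrl lesions together, mouse NK1 and mouse KO3 fell outside this size and were not tested. Where the marks fell therefore does not compare NK with Ctrl lesions. Chance marks about 1 in 20 sets if values follow a normal distribution. The test used CPM and not log2 CPM, and the distribution was not checked, so the rate is not known for Krt8, Krt19 and Vim. The rate does not apply to Krt15, where most NK lesions had no count. Nor does it apply to Krt5, Krt14 and Krt17, where every other lesion is at 0 and any count is marked. A mark therefore points to a value and does not show that it lies beyond chance. Krt8 at 104 CPM in lesion NK1-3 lay far above the other NK lesions (5.71 to 38.0 CPM), and Krt19 at 330 CPM in the same lesion far above theirs (2.02 to 29.5 CPM). NK1-3 was the shallowest library and held the most Scgb1a1. Krt15 at 62.9 CPM in lesion NK1-1 lay far above the other NK lesions (0 to 8.64 CPM). Krt5 at 2.37 CPM and Krt17 at 0.158 CPM in NK1-1 were the only values above 0, on 15 counts and on 1 count, and 1 count says nothing of a difference from the other lesions. NK1-1 was the lesion with the highest summed fat cell and heart muscle markers. Krt14 at 0.812 CPM in lesion NK1-2 was the only value above 0 and rested on 2 counts. Within mouse KO2, Vim at 2005 CPM in lesion KO2-2 stood above the other 3 lesions (1433 to 1512 CPM).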

How the results depend on the processing

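Krt18 kept its negative direction in all 34 alternatives, which draw on the same 5 mice and add no support for a difference. No member was called in any alternative except Krt15 without a filter on low counts, where 1 member was called (log2 fold change 6.32, edgeR adjusted p = 2.64e-10; over its alternatives adjusted p ran up to 0.999992). Lesion NK1-1 held 97.1% of the Krt15 counts of the NK group. Without the filter 224 of 26158 genes (0.856%) were called, with DESeq2 39, and 0 to 4 when a mouse or lesion was left out, the 4 without mouse NK2. The sign of Krt8 turned without mouse NK1 (-1.04), without lesions NK1-1 and NK1-3 (-0.30) and without the lesions above 40% mt-Rnr2 (-1.30). In the same order Krt15 turned to -6.25, -5.94 and -6.64, Krt19 to -0.57, -0.076 and -0.70, and Vim to 0.27, 0.24 and 0.17. In these settings the NK side held no Krt15 count, against 16 counts in Ctrl lesions, so the size of these Krt15 values is not a measured difference. Leaving out 1 mouse or lesion gave -1.04 to 1.16 for Krt8, -6.25 to 7.39 for Krt15, -0.57 to 2.22 for Krt19, -0.72 to 0.27 for Vim (0.08 without mouse KO1) and -0.37 to 0.41 for Krt7. Values that kept their sign shrank most for Krt15, to 1.70 with equal weight per lesion, 1.08 with the mouse as a random block, 1.18 in the authors' normalized table and 2.56 without lesion NK1-1. Krt19 shrank to 0.36 and Krt8 to 0.044 with the random block, and without lesion NK1-3 to 0.25 and 0.19. Krt7, near 0, also turned to 0.025 with equal weight per lesion, 0.012 with the random block, 0.038 in the authors' table, 0.064 without NK1-1 and NK1-3 and 0.38 without the lesions above 40% mt-Rnr2. The NK minus Ctrl difference in the Krt8 to Vim log2 ratio, 0.26, ran over -1.33 to 1.85 and that of Krt8 to Krt18, 0.81, over -0.66 to 2.28 as mice were left out. The cause of these shifts was not tested.

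NK and Ctrl mice share the numbers 1 and 2, which were read as names and not as pairs. Deviations from the group means correlated at 0.10 for NK1 with KO1 and 0.29 for NK2 with KO2. The deviations of the 2 NK mice mirror each other, so these values cannot decide whether the mice were paired. With the mouse number as a replicate block 7 genes and 0 members were called, and fold changes were 0.19 for Krt8, 6.98 for Krt15, -0.81 for Krt18, 0.63 for Krt19, -0.04 for Krt7 and -0.44 for Vim. On the log2 scale the 2 NK mice differed from each other more than the groups did for the 6 tested members. Low counts limit Krt5, Krt14 and Krt17.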
